A study of Mus musculus with 6 samples.

Results

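The neurotrophin and GDNF families were examined in sciatic nerve through 9 genes, 5 of ligands (*Gdnf*, *Artn*, *Bdnf*, *Ntf3* and *Ntf5*) and 4 of receptors (*Ngfr*, *Ntrk2*, *Ntrk3* and *Gfra1*). They were found by symbol among the 59485 genes of the deposited table, with 1 row each. Of the 5 ligand transcripts, 4 were raised in nerves labelled as *Adar1* mutants, *Gdnf* most of all, from a mean of 49.1 to 5155. None of the 4 receptor transcripts reached a 2-fold difference, and *Ngfr* had nearly equal means, 6136 and 6135.

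Both families keep neurons alive and guide their axons. Neurotrophins bind Trk receptor kinases, such as TrkB for BDNF and neurotrophin-4, and TrkC for neurotrophin-3, and all of them also bind p75NTR, the product of *Ngfr*. Ligands of the GDNF family bind a GFRα coreceptor held at the membrane by a lipid anchor, which then recruits the kinase RET. In peripheral nerve, Schwann cells (SCs) are known to carry p75NTR and GFRα coreceptors, and after injury they make GDNF, artemin and BDNF for the neurons whose axons they ensheath.

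The nerves came from mice at postnatal day 4 (P4), 3 of them labelled wild-type and 3 labelled Ht-PA-Cre; Adar1fl/fl;R26R, with 1 library per animal. In the latter, Cre under the human tissue plasminogen promoter removes a floxed *Adar1* segment in neural crest (NC) cells, the lineage of SCs, and R26R is a YFP tracer of cells with Cre activity. By the crosses that the methods describe, wild-type animals lack Cre and also carry R26R and at least 1 floxed *Adar1* allele. Cells of the nerve from outside the NC, such as endothelial cells, macrophages and muscle fibers, keep the gene. Values are reads counted on a gene divided by a size factor of the library, and 1 read was worth 0.727 to 1.27 of these units. The 6 libraries held 50938349 to 78250094 reads on genes. Values are listed below in the order of replicates 1, 2 and 3. For *Adar*, the targeted gene, they were 1602, 2066 and 1133 under the control label, against 11768, 9311 and 9773 under the mutant label. This rise goes against the deletion that the labels name, and the table has 1 value per gene, so reads of the floxed segment cannot be told from the rest. Libraries are for this reason named by their label, control-labelled or mutant-labelled, and every direction rests on the labels.

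SCs were not alone in these nerves, and several marker lists differed between genotypes. All 8 SC markers examined were detected in all 6 libraries, with *Sox10* at 10920 to 12618 under the control label and 5838 to 9171 under the mutant label, and 5 of the 8 were lower past the threshold used below, by which 10.4% of all tested genes were lower and 13.9% higher. Of 10 skeletal muscle markers, 8 were higher, with summed values of 6797 to 35936 against 46032 to 337740. Of 8 sensory neuron markers, 5 were higher, with sums of 5131 to 5463 against 9997 to 10951. T and NK cell markers, 7 of them in the table, were scarce, with sums of 87.4 to 175 against 356 to 478, and *Cd3d*, *Cd8a* and *Ncr1* had no reads under the control label. Of 8 fibroblast markers, 3 were lower, the collagen genes *Col1a1*, *Col1a2* and *Col3a1*, which make up nearly all of their summed value (1022490 to 1494760 under the mutant label against 2494340 to 2897910), and the other 5, *Pdgfra* and *Dcn* among them, overlapped. Of 6 red blood cell markers, 5 were lower, with sums of 4126 to 12716 under the mutant label against 44288 to 62635. Sums of the other 4 lists overlapped between genotypes, with members that differed in 3 of them. Of 8 macrophage markers, 3 were lower past the threshold (*Csf1r*, *Mrc1* and *Cx3cr1*), while *Itgam* and *C1qa* were higher in every mutant-labelled library but within 2-fold. Of 6 perineurial markers, *Moxd1* was higher (3.09) and *Itgb4* lower (-1.62), and 1 of 8 pericyte and smooth muscle markers was higher (*Des*). The 8 endothelial markers stayed within 2-fold, with 3 of them higher in every mutant-labelled library, as were 25.9% of all tested genes. In such bulk nerve RNA, fewer cells of a type and less RNA per cell cannot be told apart.

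The promoters of the genes that differed give the sequence context of these changes, as RefSeq windows on GRCm38.p6, the assembly that mm10 names. A window runs from 250 bases before an annotated start to 50 bases after it. Of the 9 genes, 7 had at least 1 window, 15 in all, of which *Bdnf* has 7 and *Gdnf* 2. The windows were searched on both strands for the letters of 5 motifs. These were AP-1 (TGANTCA), the cAMP response element (TGACGTCA), STAT (TTCNNNGAA), the interferon-stimulated response element (GAAA, 2 bases of any kind, then GAAA) and NF-kappaB (GGG, 2 bases of any kind, then TTTCC). The 250 bases before the start are shown for both *Gdnf* starts, for the 3 *Bdnf* starts with a match and for *Gfra1*, 5′ to 3′ on the gene's strand, with matched letters in capitals, which in *Bdnf* start 4 lie on the other strand.
Gdnf start 1, chr15:7809798-7810047, plus strand: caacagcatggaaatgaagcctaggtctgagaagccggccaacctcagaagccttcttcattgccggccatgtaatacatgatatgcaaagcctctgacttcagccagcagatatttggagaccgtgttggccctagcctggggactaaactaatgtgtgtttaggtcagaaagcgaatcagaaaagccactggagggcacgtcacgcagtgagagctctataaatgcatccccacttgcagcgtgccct
Gdnf start 2, chr15:7813477-7813726, plus strand: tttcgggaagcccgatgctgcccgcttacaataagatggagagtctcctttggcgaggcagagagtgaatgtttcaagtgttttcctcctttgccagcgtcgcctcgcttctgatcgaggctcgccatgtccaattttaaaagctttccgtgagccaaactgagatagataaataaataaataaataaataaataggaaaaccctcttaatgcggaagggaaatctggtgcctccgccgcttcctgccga
Bdnf start 1, chr2:109674450-109674699, plus strand: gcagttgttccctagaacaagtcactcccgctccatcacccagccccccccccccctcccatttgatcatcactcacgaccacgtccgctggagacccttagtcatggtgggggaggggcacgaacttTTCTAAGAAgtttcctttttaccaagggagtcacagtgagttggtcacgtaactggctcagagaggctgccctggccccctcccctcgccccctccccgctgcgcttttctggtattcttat
Bdnf start 2, chr2:109676782-109677031, plus strand: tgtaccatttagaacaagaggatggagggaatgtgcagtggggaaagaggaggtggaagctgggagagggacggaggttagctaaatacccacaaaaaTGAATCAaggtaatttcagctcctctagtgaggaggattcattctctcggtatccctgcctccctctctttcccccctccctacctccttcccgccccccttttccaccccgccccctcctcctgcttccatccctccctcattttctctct
Bdnf start 4, chr2:109692777-109693026, plus strand: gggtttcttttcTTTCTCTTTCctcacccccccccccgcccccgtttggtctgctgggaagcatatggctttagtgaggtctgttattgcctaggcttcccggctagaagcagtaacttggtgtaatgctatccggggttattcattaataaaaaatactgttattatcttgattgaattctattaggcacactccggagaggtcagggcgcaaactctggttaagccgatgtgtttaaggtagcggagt
Gfra1 start 1, chr19:58455399-58455648, minus strand: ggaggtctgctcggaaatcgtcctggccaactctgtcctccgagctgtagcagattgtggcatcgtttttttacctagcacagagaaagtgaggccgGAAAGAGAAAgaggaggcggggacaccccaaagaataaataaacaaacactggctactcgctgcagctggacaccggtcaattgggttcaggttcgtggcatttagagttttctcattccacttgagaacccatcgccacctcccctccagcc

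Neither *Gdnf* window held letters of any of the 5 motifs, and the same was true of the window of *Artn* and both windows of *Ntf3*. *Bdnf* start 1 held a STAT match that began 122 bases before the start site, start 2 an AP-1 match at 152 bases and start 4 an interferon-stimulated response element at 238 bases. *Gfra1* held an interferon-stimulated response element at 153 bases before its start. Among all 32851 windows of the same length, 8.3% held the STAT letters, 7.81% the AP-1 letters, 3.44% those of the interferon-stimulated response element, 1.79% those of the cAMP response element and 1.63% those of NF-kappaB. A match describes letters and says nothing about binding. The table has 1 value per gene, so the starts in use in these nerves were not analysed here.

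The genotypes were compared on the log2(value + 1) scale with limma, across 25802 genes whose mean reached 10 under at least 1 label. The test covered 8 of the 9 genes, and each of these exceeded the minimum under both labels. Passing the threshold took an unadjusted p at or under 0.05 together with at least a 2-fold change. Adjusted p-values follow Benjamini and Hochberg across all 25802 genes. Of the 8 tested genes, 4 passed, all of them ligands and all higher under the mutant label, beside 13.9% of all tested genes called higher and 24.2% called in either direction. The same 4 kept the call when the adjusted p had to be at or under 0.05, beside 11.5% of all tested genes called higher in that way and 19.9% in either direction. In 5 of the 8 genes, all mutant-labelled values lay above all control-labelled ones, which held for 25.9% of tested genes, and in 1, *Ntrk3*, they all lay below (23.3% of tested genes). The median log2 fold change was 3.69 for the 4 ligands tested, -0.18 for the 4 receptors and 0.03 for all tested genes. With 3 libraries per genotype, an exact two-sided permutation test of 1 gene cannot give a p below 0.1.

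**Figure D1:**
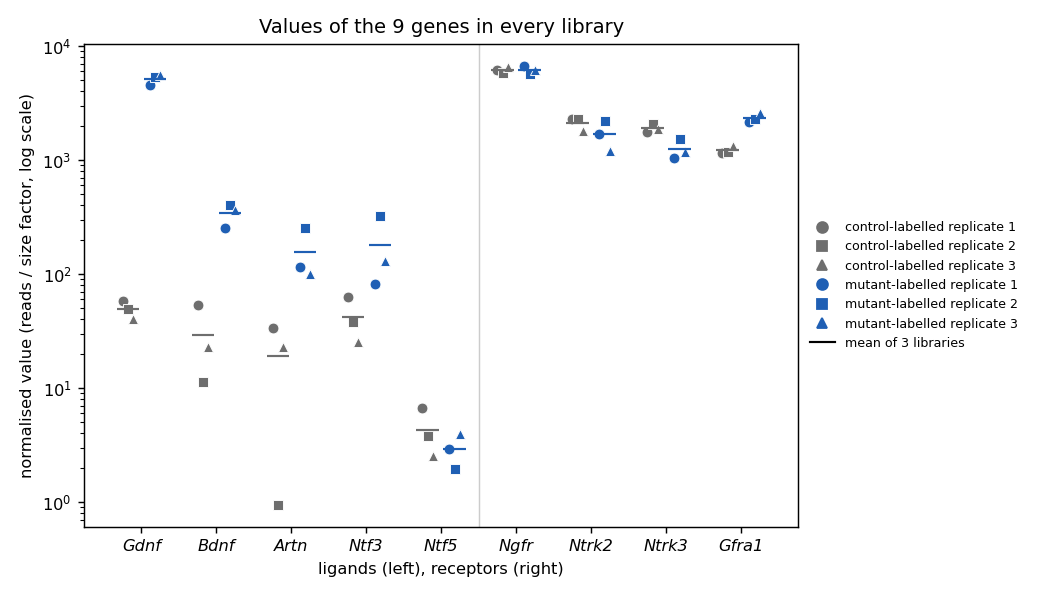
Normalised value (reads divided by a size factor, log axis) of each of the 9 genes in the 3 control-labelled (gray) and 3 mutant-labelled (blue) libraries, with bars at the means and 1 symbol per replicate number. *Gdnf*, *Bdnf*, *Artn*, *Ntf3* and *Gfra1* have every mutant-labelled point above every control-labelled point, while *Ngfr* points lie on top of each other between 5641 and 6675 and *Ntf5* stays at or under 6.66 in all libraries.

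*Gdnf* (GSMG0012945, chromosome 15, 7810048 to 7837580, plus strand) encodes the founding ligand of its family, a survival factor for motor and sensory neurons that signals through GFRα1 and RET. Its values were 57.7, 49.1 and 40.6 under the control label, against 4546, 5382 and 5538 under the mutant label. The genotypes were far apart and each was even, with a ratio of highest to lowest library of 1.42 and 1.22. The means of 49.1 ± 8.6 and 5155 ± 533 (SD, n = 3) differ 105-fold. The log2 fold change was 6.69 (standard error 0.18, 95% confidence interval 6.28 to 7.11), with an adjusted p of 8.4e-07. This placed it at rank 69 of the 3580 genes called higher, and leaving out any 1 library kept it between 6.56 and 6.81. No other gene of the table overlaps *Gdnf*.

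*Bdnf* (GSMG0021533, chromosome 2, 109674700 to 109727043, plus strand) encodes brain-derived neurotrophic factor, the TrkB ligand. Its values were 53.3, 11.3 and 22.8 under the control label, against 255, 403 and 367 under the mutant label. Every mutant-labelled library lay above every control-labelled one, and the control-labelled values were the more uneven, with a ratio of highest to lowest of 4.70 against 1.58. The means were 29.1 ± 21.7 and 342 ± 77.5 (SD, n = 3), an 11.7-fold difference. Its log2 fold change was 3.74 (standard error 0.53, adjusted p = 0.000979), and 3.23 to 4.29 when any 1 library was left out. No other gene of the table overlaps *Bdnf*.

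*Artn* (GSMG0028262, chromosome 4, 117926160 to 117929765, minus strand) encodes artemin, the ligand of GFRα3. Its values were 33.3, 0.945 and 22.8 under the control label, where the value of replicate 2 is 1 read, against 116, 254 and 101 under the mutant label. The genotypes did not overlap, but both were uneven, at 19.0 ± 16.5 and 157 ± 84.3 (SD, n = 3). The log2 fold change of 3.63 was the least precise of the 8, with a standard error of 1.02, a 95% confidence interval of 1.30 to 5.97 and an adjusted p of 0.0246. The size depended on the setting, at 2.63 with a pseudocount of 10 and 3.05 in both edgeR and DESeq2, and the ratio of means was 8.24. Among left-out libraries it moved most with control replicate 2: without that library it was 2.34 (adjusted p = 0.0143), and without control replicate 1 it was 4.41. Without mutant replicate 2, the highest library, the adjusted p was 0.0971 at a log2 fold change of 3.22, and it was also above 0.05 without either other mutant-labelled library.

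*Ntf3* (GSMG0033691, chromosome 6, 126101413 to 126166744, minus strand) encodes neurotrophin-3, which acts on proprioceptive neurons through TrkC and is also an autocrine factor of SCs. Its values were 63.3, 37.8 and 25.3 under the control label, against 82.2, 324 and 130 under the mutant label. The gap between the genotypes was narrow, since mutant replicate 1 was near control replicate 1, whereas mutant replicate 2 was 3.94 times as high as mutant replicate 1. The log2 fold change was 1.92 (standard error 0.56, 95% confidence interval 0.63 to 3.2, adjusted p = 0.0292). Without mutant replicate 2 it was 1.37, still past the threshold, with an adjusted p of 0.0964. The adjusted p also rose above 0.05 without control replicate 2, control replicate 3 or mutant replicate 3, to 0.0906 at most. A gene without a symbol overlaps *Ntf3* on its strand, with values between 0 and 11.3.

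The 3 less abundant raised ligands varied among libraries of one label, and so did the sums of cell type markers. Of the 10 lists, the endothelial and the pericyte and smooth muscle sums had the library order of *Ntf3* under both labels, and no list had that of *Artn* or *Bdnf* under both. Endothelial sums were 24391, 19974 and 15969 under the control label, against 22454, 30856 and 24462 under the mutant label. Pericyte and smooth muscle sums were 45127, 28692 and 23730, against 28014, 68749 and 46090. SC sums were 1140410, 1365460 and 1509060, against 209164, 52557 and 91569, and skeletal muscle sums were 35936, 6797 and 27367, against 104606, 46032 and 337740. *Artn*, *Bdnf* and *Ntf3* were each highest in mutant replicate 2, whose skeletal muscle and SC sums were the lowest and whose pericyte and smooth muscle sum was the highest of the 3. The part of these cell types in the values was not tested.

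*Ntf5* (GSMG0034467, chromosome 7, 45413695 to 45417178, plus strand), the gene of neurotrophin-4, was the exception among the ligands. Its values were 6.66, 3.78 and 2.53 under the control label, against 2.91, 1.93 and 3.96 under the mutant label, which overlap and rest on 2 to 6 reads per library. It did not reach the minimum mean of 10 and was not tested, and at this depth no difference was detectable.

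*Ngfr* (GSMG0007269, chromosome 11, 95568818 to 95587699, minus strand) encodes p75NTR, which immature and repair SCs carry and myelinating SCs lose. Its values were 6103, 5805 and 6500 under the control label, against 6675, 5641 and 6088 under the mutant label. The genotypes overlapped throughout, with means of 6136 ± 348 and 6135 ± 519 (SD, n = 3). Its log2 fold change was -0.0022 (standard error 0.097, adjusted p = 0.989). The 95% confidence interval, from -0.23 to 0.22, lies inside the 2-fold limits. Its sign turned with the scaling of the libraries, to 0.16 when all were rescaled to the same total, a scaling that moved the median of all tested genes from 0.03 to 0.19.

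*Gfra1* (GSMG0020557, chromosome 19, 58235581 to 58455398, minus strand) encodes GFRα1, the coreceptor of GDNF. Its values were 1158, 1178 and 1337 under the control label, against 2157, 2272 and 2595 under the mutant label. Every mutant-labelled library was higher, at a ratio of means of 1.91, and the spread within a genotype was small. The log2 fold change of 0.93 (standard error 0.12, 95% confidence interval 0.66 to 1.21, adjusted p = 0.000578) stayed below the 2-fold limit, also when any 1 library was left out. It passed this limit when the libraries were rescaled to the same total, at 1.10.

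*Ntrk3* (GSMG0043600, chromosome 7, 78192114 to 78577980, minus strand) encodes TrkC, the receptor of neurotrophin-3. Its values were 1759, 2060 and 1854 under the control label, against 1047, 1540 and 1186 under the mutant label. All mutant-labelled libraries were lower, at a ratio of means of 0.665, which is within 2-fold. The log2 fold change was -0.60 (standard error 0.16, 95% confidence interval -0.96 to -0.25, adjusted p = 0.0176), and its adjusted p rose above 0.05 without control replicate 2, mutant replicate 1 or mutant replicate 3, to 0.0703 at most. On its strand, 4 genes without a symbol overlap *Ntrk3*, and the strongest of them had 334 to 390 under the control label and 102 to 271 under the mutant label.

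*Ntrk2* (GSMG0009846, chromosome 13, 58806568 to 59133970, plus strand) encodes TrkB, of which glia are known to make mainly a form without the kinase domain. Its values were 2271, 2270 and 1789 under the control label, against 1685, 2204 and 1199 under the mutant label. The ranges of both labels overlapped, and the fitted log2 difference was -0.35 (standard error 0.21, 95% confidence interval -0.84 to 0.14, adjusted p = 0.24). The table has no separate value for the truncated form. On its strand, 2 genes without a symbol overlap *Ntrk2*, with at most 44.4 in a library. Genes on the strand opposite to *Gfra1*, *Ntrk2* or *Ntrk3* had at most 6.66 in a library.

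**Figure D2:**
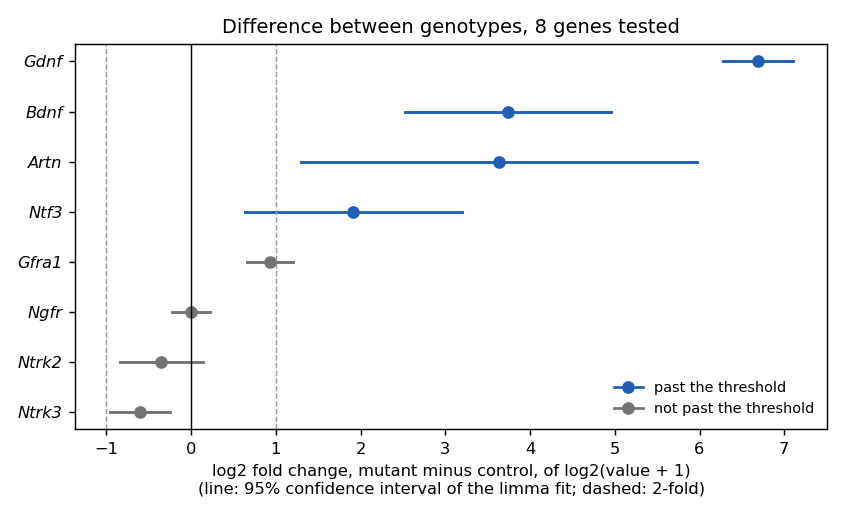
Log2 fold change (mutant-labelled minus control-labelled, log2(value + 1) scale) of the 8 tested genes, as points with the 95% confidence interval of the limma fit, and dashed lines at 2-fold. The intervals of *Gdnf*, *Bdnf* and *Artn* lie beyond the 2-fold line and that of *Ntf3* reaches below it, while the intervals of *Ngfr*, *Ntrk2* and *Ntrk3* lie between the dashed lines and that of *Gfra1* crosses the upper one.

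Levels of different genes were set side by side per kb of merged exons of GENCODE vM21, since a value grows with the length counted. The lengths of the constitutive regions that were counted were not used here, so these levels are approximate, most of all for *Ntrk2* and *Ntrk3*, whose merged exons span 19292 and 30170 bases. Under the control label, *Ngfr* had the highest level of the 9 genes, 1781 ± 101 per kb (SD, n = 3), followed by *Gfra1* at 224 ± 17.9, *Ntrk2* at 109 ± 14.4 and *Ntrk3* at 62.7 ± 5.1, without overlap between neighbours. *Gdnf*, at 13.4 ± 2.34 per kb, was below all 4 receptors there and overlapped its neighbours *Ntf3* at 24.6 ± 11.3 and *Artn* at 7.91 ± 6.87. Under the mutant label *Gdnf* stood at 1403 ± 145 per kb, next to *Ngfr* at 1780 ± 151 and above *Gfra1* at 428 ± 41.5. Single libraries of *Gdnf* (1237 to 1507 per kb) and *Ngfr* (1637 to 1937 per kb) did not overlap. *Ntf3*, *Ntrk2*, *Artn*, *Bdnf* and *Ntrk3* came next in this order, each overlapping its neighbours, from 34.7 to 189 per kb over the 5 genes. *Ntf5* had the lowest mean level under both labels, at 1.63 ± 0.798 and 1.11 ± 0.382.

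**Figure D3:**
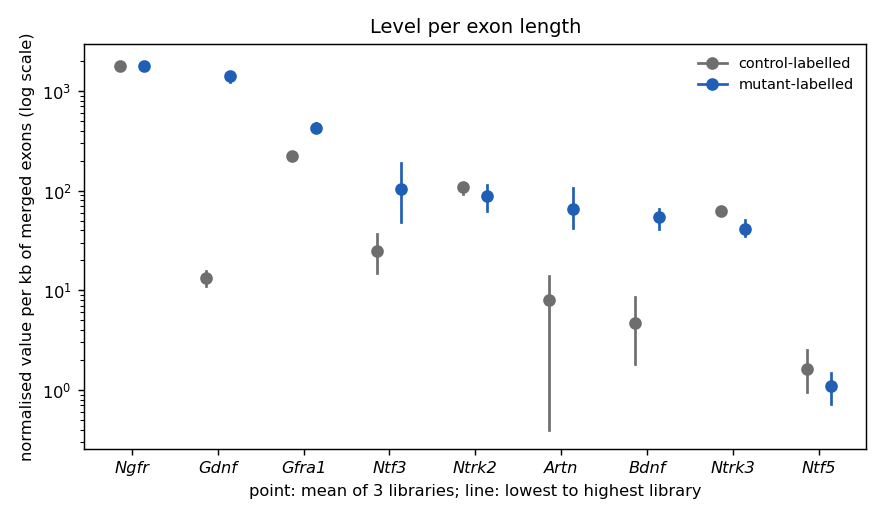
Normalised value per kb of merged exons (log axis) of the 9 genes in control-labelled (gray) and mutant-labelled (blue) libraries, ordered by the mutant-labelled mean, with points at the mean of 3 libraries and lines from the lowest to the highest. *Gdnf* has a gray mean of 13.4 and a blue mean of 1403, next to *Ngfr*, at 1781 and 1780.

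The other genes of both pathways were described from 5 lists. Of 51 genes found in the table, 48 were tested, and 14 passed the threshold, 8 higher and 6 lower, with a median log2 fold change of 0.03 over the 48 (24.2% of all tested genes passed, 13.9% higher and 10.4% lower). Values did not overlap between genotypes in 29 of the 48, with 14 higher and 15 lower, as in 49.2% of all tested genes. The split of calls by direction moved with the scaling, to 12 higher and 5 lower with the same total and to 7 and 7 with the same 75th percentile.

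Among the other ligands, 1 of 2 tested passed. *Gdf15*, a distant member of the superfamily that binds GFRAL, had 13.3, 35.9 and 21.5 under the control label, against 2592, 2567 and 1666 under the mutant label (log2 fold change 6.61 ± 0.36, standard error, with adjusted p = 9.69e-06). *Pik3r2*, as the table draws it, overlaps it on its strand with lower values under the mutant label. The GDF15 receptor gene *Gfral* had no reads in any library, which allows up to 3 reads per library, or values of 2.18 to 3.80. *Nrtn*, the gene of the GFRα2 ligand neurturin and named here after its values were seen, was just below 2-fold at 0.97 (adjusted p = 0.039). It passed without control replicate 1, control replicate 3 or mutant replicate 2, at up to 1.18, after scaling to equal totals (1.13), and in edgeR and DESeq2 (both 1.01).

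Of 11 other receptors and coreceptors reported here, 3 were lower past the threshold. *Gfra3*, the gene of the artemin coreceptor, fell from 179 to 402 under the control label to 12.5 to 26.7 under the mutant label (log2 fold change -3.64, standard error 0.46, adjusted p = 0.000574). Under the mutant label the *Artn* transcript was thus higher and the *Gfra3* transcript lower, while *Gdnf* and *Gfra1* transcripts were both higher, *Gfra1* below 2-fold. *Ret*, the kinase that both pairs use, had 124, 71.8 and 175 against 163, 192 and 300, which overlap (log2 fold change 0.86, adjusted p = 0.119). It passed the threshold without control replicate 3 (1.15) and with the same total (1.02). *Gfra2* had a log2 fold change of -0.53 (adjusted p = 0.0686), with every mutant-labelled library lower. *Ncam1*, an alternative receptor for GDNF, was at 0.28 (adjusted p = 0.135).

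Sorting receptors of the sortilin family, which bind proneurotrophins or steer Trk receptors, made up 5 of these 11 genes, and 2 of the 5 fell. *Sorcs1* fell from a mean of 3969 ± 587 to 1549 ± 330 (log2 fold change -1.37, adjusted p = 0.000559), and 11 genes without a symbol overlap it on its strand. *Sorcs3* was scarce and fell from 49.9 ± 25.2 to 13.0 ± 1.49 (-1.76, adjusted p = 0.0356), and its call was lost without control replicate 3 (-1.38). *Sort1*, which pairs with p75NTR to bind proneurotrophins, had 3206, 3357 and 3361 under the control label, against 1739, 1433 and 1941 under the mutant label. This difference was just under 2-fold (-0.97, standard error 0.13, adjusted p = 0.000653), and passed it without mutant replicate 3 (-1.07) or with the same 75th percentile (-1.04). The remaining members lay on the other side of 0, *Sorcs2* at 0.63 (adjusted p = 0.0148) with every mutant-labelled library higher and *Sorl1* at 0.90 (adjusted p = 0.284) with overlapping values, both named after their values were seen.

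Of 8 partners of p75NTR tested, 2 were higher and 1 lower. *Ripk2*, an adaptor of p75NTR and of NOD receptors, rose from 392 ± 72.3 to 2712 ± 180 (log2 fold change 2.80, adjusted p = 9.69e-06). *Tnfrsf19*, the gene of TROY, which can take the place of p75NTR beside the Nogo receptor, rose unevenly, from 26.7, 13.2 and 11.4 to 817, 282 and 134 (4.21, adjusted p = 0.00158). With any 1 library left out, its log2 fold change ran from 3.52 to 4.83. *Rtn4r*, the Nogo receptor gene, fell from 215, 200 and 117 to 103, 25.1 and 96.9 (-1.43, adjusted p = 0.0789). Its call was lost without control replicate 1 (-1.26), control replicate 2 (-1.31) or mutant replicate 2 (-0.78), and when the libraries were rescaled to the same total or the limma fit had no trend.

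Proteases that cut proneurotrophins, or activate those that do, had 5 of 10 tested genes higher and 1 lower. *Pcsk1* and *Pcsk2*, convertases of the regulated secretory pathway, rose from 10.1 ± 1.23 to 93.7 ± 8.36 and from 29.9 ± 15.4 to 117 ± 18.7 (log2 fold changes 3.09 and 2.04, adjusted p = 0.000966 and 0.00915). *Plat*, the gene of tissue plasminogen activator, rose from 5908 ± 459 to 13244 ± 1121 (1.16, adjusted p = 7.8e-05). *Plg*, the gene of plasminogen, was at 9.45 to 15.5 under the control label and had no reads in mutant replicates 1 and 2 (log2 fold change -3.05, adjusted p = 0.0398), so its log2 fold change depended on the setting, from -5.26 to -1.06, and its call was lost in edgeR on the recovered reads (-3.29, unadjusted p = 0.0518). *Mmp9* rose from 4.44, 48.2 and 63.4 to 212, 125 and 130 (2.56, adjusted p = 0.0491), and lost its call without mutant replicate 1 (2.31), while without control replicate 1 its log2 fold change was 1.44. *Mmp3* was at the limit, with 1.04 (adjusted p = 0.0566), and lost its call without control replicate 3 (0.90), mutant replicate 1 (1.03) or mutant replicate 2 (0.92), with the same 75th percentile (0.97) and with a pseudocount of 10. *Furin*, the main convertase of proneurotrophins and named after its values were seen, was higher in every mutant-labelled library but under 2-fold (0.96, adjusted p = 0.000159), and passed it without control replicate 1 (1.01) and with the same total (1.12).

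Of 17 adaptors of the Trk and RET kinases, 1 passed. *Shc4* fell from 3843, 4181 and 4117 to 1772, 862 and 1617 (log2 fold change -1.58, standard error 0.24, adjusted p = 0.00154). *Eid1*, a more abundant gene on the opposite strand within *Shc4*, was lower in the same libraries, at 28917 to 29759 under the control label and 10869 to 12636 under the mutant label, and whether the counting used strand is not given in the sources used here. The other 16 adaptors stayed within 2-fold, from -0.79 for *Kidins220* to 0.96 for *Gab2*, both named after their values were seen. *Gab2* passed 2-fold with the same total (1.13) and without mutant replicate 2 (1.03).

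**Figure D4:**
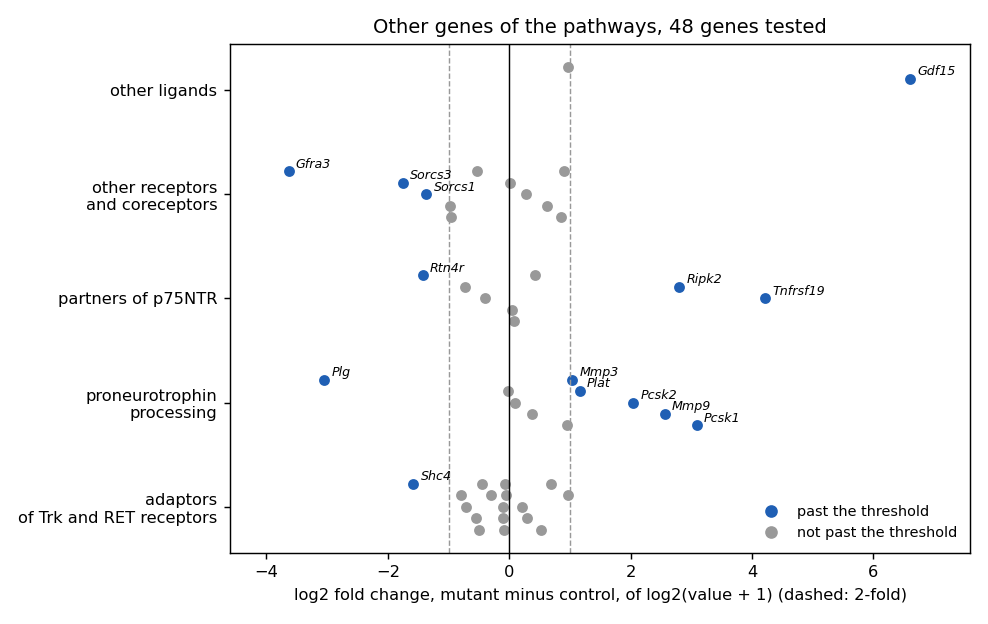
Log2 fold change (mutant-labelled minus control-labelled, log2(value + 1) scale) of the 48 other pathway genes tested, in 5 lists, with the 14 genes past the threshold in blue and named, and dashed lines at 2-fold. *Gdf15* at 6.61 and *Tnfrsf19* at 4.21 lie farthest to the right and *Gfra3* at -3.64 farthest to the left, and the adaptors lie between the dashed lines apart from *Shc4*.

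For each of the 4 raised ligands, the 3 genes of most similar profile were taken, by the Euclidean distance of centred log2(value + 1) over the 6 libraries. Genes with a difference of like size between genotypes come out near by this measure. *Soat2*, a sterol esterification enzyme, was nearest to *Gdnf*, with 26.6 ± 4.83 under the control label and 2557 ± 291 under the mutant label (distance 0.407), ahead of *Hmx3* and *H2-Q2*, both without reads in control-labelled libraries. *H2-Q2* belongs to a family of near-identical genes, so its value is uncertain. *Inhba*, an activin subunit gene, *Slc8a3* and *Aim1* were nearest to *Bdnf* (distances 0.418, 0.548 and 0.731). *Rgs7*, *Mctp2* and *Cyp26a1* were nearest to *Artn* (0.912, 1.05 and 1.19), and *Ly6k*, *Ccbe1* and *Hoxa11* to *Ntf3* (0.273, 0.523 and 0.649). *Ccbe1*, like *Ntf3*, was uneven under the mutant label, at 306 ± 218 against 83.4 ± 42.8 under the control label. Control-labelled means of *Ly6k*, *Cyp26a1* and *Inhba* were only 4.33, 5.39 and 6.34, a few reads per library, so their distances are uncertain.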

How the data were processed

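Poly-A RNA of sciatic nerves was sequenced by the authors as oriented paired-end libraries, 1 per animal. Per the labels and the methods, reads were mapped to mm10 with STAR 2.4.0 and counted on constitutive regions of FAST DB genes. The deposited signal of a gene is this read count divided by a DESeq2 size factor of the library. Every value was a whole multiple of the value of 1 read (100% within 0.01 in each library), so reads were recovered. Depth was 50938349 to 78250094 reads on genes, and floors cover counting error only.

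Differences between the 3 control-labelled and 3 mutant-labelled libraries were fitted on log2(value + 1) by limma, using eBayes with a trend and no covariate, for genes whose mean reached 10 under either label. Replicate numbers came from the labels and name different animals, so the p-values measure the spread between animals. The code was tested on simulated counts. Alternatives were other pseudocounts, filters and scalings, edgeR and DESeq2 on recovered reads, a replicate block and leaving out each library. The expression filter of the methods was not applied, since it needs intergenic reads, which were not used here.

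The genes and lists were chosen with earlier results of these data known. Named are the 9 genes, the other pathway genes past the threshold without overlap, *Ret*, *Gfra2*, *Gfra3*, *Sort1* and *Ncam1*, and the 3 nearest profiles of each raised gene. Some genes of the lists are not reported here and were left out of the counts. Promoters came from RefSeq and exon lengths from GENCODE. R 4.3.3, limma 3.58.1, edgeR 4.0.16, DESeq2 1.42.0 and Python 3.11.15 were used.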

Additional observations from a re-analysis of the deposited data

How the results depend on the processing

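The same 4 ligands passed the threshold under every other setting tried and with any of the 6 libraries left out. Rescaling to the same total added a receptor, *Gfra1* at 1.10, which made 5 of the 8 tested genes. The count of other pathway genes, 14, ran from 12 to 17 over the settings and from 12 to 16 with a library left out. Of 136 log2 fold changes of the 8 tested genes under these alternatives, 129 kept their direction and their side of the threshold. *Ngfr*, whose difference was close to 0, changed sign in 6: it was 0.16 with the same total, 0.011 with TMM factors and 0.0063 in edgeR, and ran from -0.065 to 0.057 with a library left out. The adjusted p of *Artn* ran up to 0.0773 and that of *Ntf3* up to 0.071 over the settings. A replicate block gave 4 ligands and 14 other pathway genes past the threshold. Deviations of libraries with the same number correlated at -0.0619, -0.0555 and 0.00891, so the numbers were not taken to pair the animals. *Ntf5*, with 2 to 6 reads per library, is limited by depth.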
